A study of Cucumis sativus with 8 samples.

Results

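The comparison described here set the leaf vein of a *CsIVP*-RNAi cucumber line against the young fruit of the same line, across the 17778 of 17783 genes that passed a filter on low values. The RNAi line is R5, the mild line of the study, which carries a hairpin against *CsIVP* (labelled *CsIND* by the submitters) in the background of the inbred line R1461. Each tissue was represented by 2 libraries described as biological replicates, so 4 of the 8 libraries of the series form the comparison. The vein samples were midveins cut from the youngest expanded leaves, and the fruits were taken 4 d before anthesis. The other 4 libraries, untransformed plants (WT) of the same background sampled in the same tissues, entered the same fit. Their levels are used only to show where the tissue difference of R5 departed from that of WT. Their spread, however, also enters every SE and p-value of the R5 comparison. R5 is 1 transgenic line, so an effect of *CsIVP* and an effect of that insertion cannot be told apart. Vein and fruit are mixed tissues, and in bulk RNA fewer cells of a type and less RNA per cell cannot be told apart.

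A midvein is a transport organ. It holds xylem and phloem, supporting tissue with thick walls, and some green parenchyma. A cucumber fruit before anthesis is an unopened flower's inferior ovary, in which cells divide, the epidermis is being covered with cuticle, and floral and meristem regulators are active. *CsIVP* encodes a basic helix-loop-helix transcription factor, a class that binds the E-box CANNTG in DNA.

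Values are counted reads scaled to a common library total (RPM) and are given for replicate 1 and then replicate 2. They are not divided by gene length, so levels are compared between libraries and not between genes. Each log2 difference is vein minus fruit on log2(RPM + 0.5), which understates the change of low genes, and a negative value therefore means a higher level in fruit. A gene was called at an adjusted p under 0.05 in limma, together with at least 2-fold. With 2 libraries against 2 an exact permutation test cannot go below p = 0.333, so every adjusted p quoted is that of the fit across all genes. The 4 R5 libraries held 18433971 and 18984986 counted reads in vein and 18389219 and 21747929 in fruit. A count of 0 allows up to 3 reads, or 0.138 to 0.163 RPM in these libraries, for counting error only.

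Of the 17778 genes tested, 1486 (8.36%) were higher in vein and 2512 (14.1%) were higher in fruit, 22.5% in all. With the spread taken from the 4 R5 libraries alone, the counts were 840 and 1960. The libraries of the tissues did not overlap in 12050 genes (67.8%), which included all 3998 called genes. The median called difference was 1.70 on the vein side and -1.68 on the fruit side. At least 32-fold separated the tissues for 55 genes higher in fruit and 10 higher in vein, and at least 4-fold for 945 and 530. The median over all genes was -0.20 with RPM and moved to -0.02 with TMM factors, so each difference can be read against that shift. Vein-higher genes were 37.2% of the calls with RPM, 47.1% with TMM factors, 49.3% with quantile normalization, 49.9% in edgeR and 57.4% in DESeq2.

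The R5 vein libraries stood apart from each other, which bears on every vein value. A gap of over 2-fold lay between them in 2650 genes, and between the R5 fruit libraries in 419. Of the vein-higher calls, 436 (29.3%) were over 2-fold apart between the vein libraries, and of the fruit-higher calls 276 (11.0%). Replicate 1 of vein was nearer to R5 fruit than replicate 2 was (Pearson's r over genes with the fruit mean 0.849 and 0.797, a description over genes that are not independent) and further from WT vein (0.826 and 0.893). When either vein library alone stood for the tissue, 1086 of 1486 vein-higher calls (73.1%) and 1975 of 2512 fruit-higher calls (78.6%) were made in both fits. The lone library is then assumed to vary like the other groups.

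*CsIVP* (Csa6G483450), the gene the hairpin targets, had 0 and 0 RPM in vein and 42.3 and 52.1 RPM in fruit. No read was counted in either vein library, and fruit was at least 289.7-fold higher when vein is set at the 3 reads that a count of 0 allows in the smaller library. WT showed the same order, with 0 and 0 RPM in vein and 49.98 and 38.3 RPM in fruit, so the libraries of the tissues did not overlap, while those of R5 and WT overlapped within each tissue. The tissue difference in R5 minus that in WT was -0.10 on the log2 scale (adjusted p = 0.85). In fruit these values thus show no lower *CsIVP* level in R5 than in WT. In vein a lower level could not have been seen, since no read was counted in WT vein either. The study reported lower *CsIVP* in R5 by qRT-PCR and immunoblot. It also reported *CsIVP* RNA in vascular tissues by in situ hybridization. The reason for the gap between these measures and the RPM values was not tested.

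Oligonucleotides of the study show the kind of DNA site at issue for genes that the study examined as *CsIVP* targets. By gel shift the study found binding to the *CsYAB5* and *CsBP* probes and none to the *CsCCR1* probe. The *CsCCR1* site had been bound in its yeast one-hybrid assay. *CsAUX4*, which the study also reported as bound, is not shown here. The stretches below come from the forward gel-shift probes listed by the study for the promoters of *CsYAB5*, *CsBP* and *CsCCR1*, 5′ to 3′. Each shows the E-box in capitals with 12 bases on either side, 30 bases in all. A search for CANNTG, a motif that reads the same on both strands, found 1 match in each probe. The positions of the probes in the genome were not analysed here, and the letters say nothing of binding in vein or fruit.
CsYAB5: aattgttttaacCAATTGagttatatacat
CsBP: atggcgcaccctCAACTGagatatctatac
CsCCR1: attgacttcttcCACTTGtgcagtcaaaca

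These genes did not move together between the tissues. *CsYAB5* (Csa2G006820), a YABBY factor of the family that in Arabidopsis sets the abaxial side of lateral organs, was at 57.9 and 47.6 RPM in vein and 15.6 and 13.2 RPM in fruit (log2 difference 1.83, SE 0.17, adjusted p = 0.00048). Its relative annotated as *FIL* (Csa5G160210) was at 6.84 and 12.3 RPM in vein and 196 and 210.5 RPM in fruit (log2 difference -4.39, SE 0.28, adjusted p = 0.00013), so members of 1 family lay on opposite sides with no overlap of libraries. *CsBP* (Csa2G352430), a KNOX homeobox gene of meristems, was low everywhere, with 0.488 and 0.316 RPM in vein and 1.41 and 0.644 RPM in fruit, and was not called (adjusted p = 0.21). *CsCCR1* (Csa3G717370), a cinnamoyl-CoA reductase of the lignin pathway, had 21.3 and 14.8 RPM in vein. In fruit its libraries were 12.7 and 2.16 RPM, so the gap between the fruit libraries was wider than that between replicate 1 of fruit and replicate 2 of vein, and the difference missed the call (log2 1.62, adjusted p = 0.10). Without fruit replicate 1 it was called (log2 2.78, adjusted p = 0.00788 in limma).

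**Figure D1:**
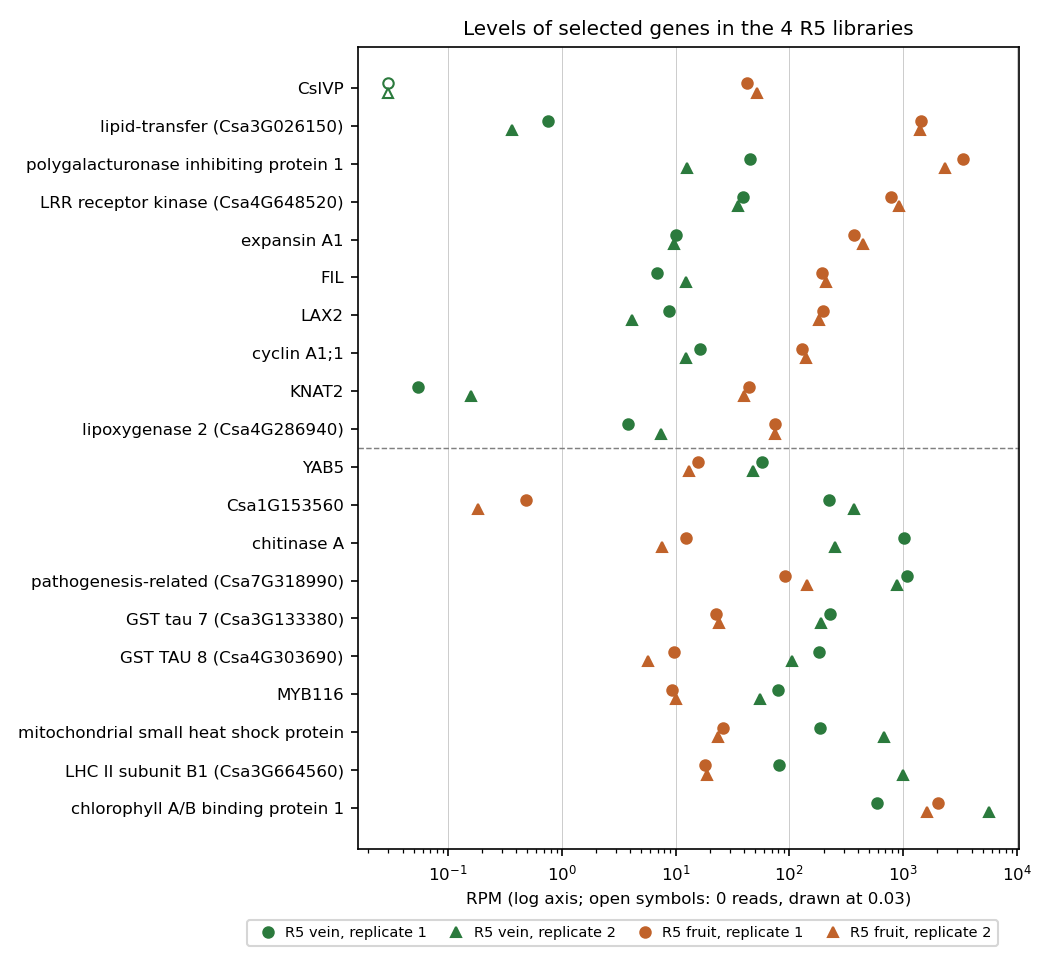
Level of 20 selected genes in each R5 library, in RPM on a log axis, with vein in green, fruit in orange, replicate 1 as circles and replicate 2 as triangles. The 10 genes above the dashed line, led by *CsIVP* at 0 in vein, have every fruit library above every vein library, and the vein libraries of chlorophyll A/B binding protein 1 lie on either side of its fruit libraries.

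Gene names were available for 2885 of the 17778 genes, from the study's tables, which annotate them by Arabidopsis matches. The study picked nearly all of these because they differed between R5 and WT vein, 1812 as higher and 1026 as lower in R5, and the same R5 vein libraries enter the tissue contrast. Counts over lists of named genes are therefore no independent evidence of a direction. Of the 1812, 30.4% were vein-higher and 4.91% fruit-higher here, and of the 1026, 8.19% and 44.4%. Over all named genes, 22.2% were vein-higher and 19.4% fruit-higher with a median of 0.37, and the lists below are best read against these shares as well as against 8.36% and 14.1%. Lists drawn mostly from the 1026 are to be read against 8.19% and 44.4%, and those drawn mostly from the 1812 against 30.4% and 4.91%. Among the latter were the receptor kinases (79 of 106), calcium (59 of 65), pathogenesis-related (43 of 54), NAC and MYB (41 of 50) and ethylene genes (15 of 16). Their vein-higher shares were 38.7%, 35.4%, 37.0%, 32% and 37.5%.

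**Figure D2:**
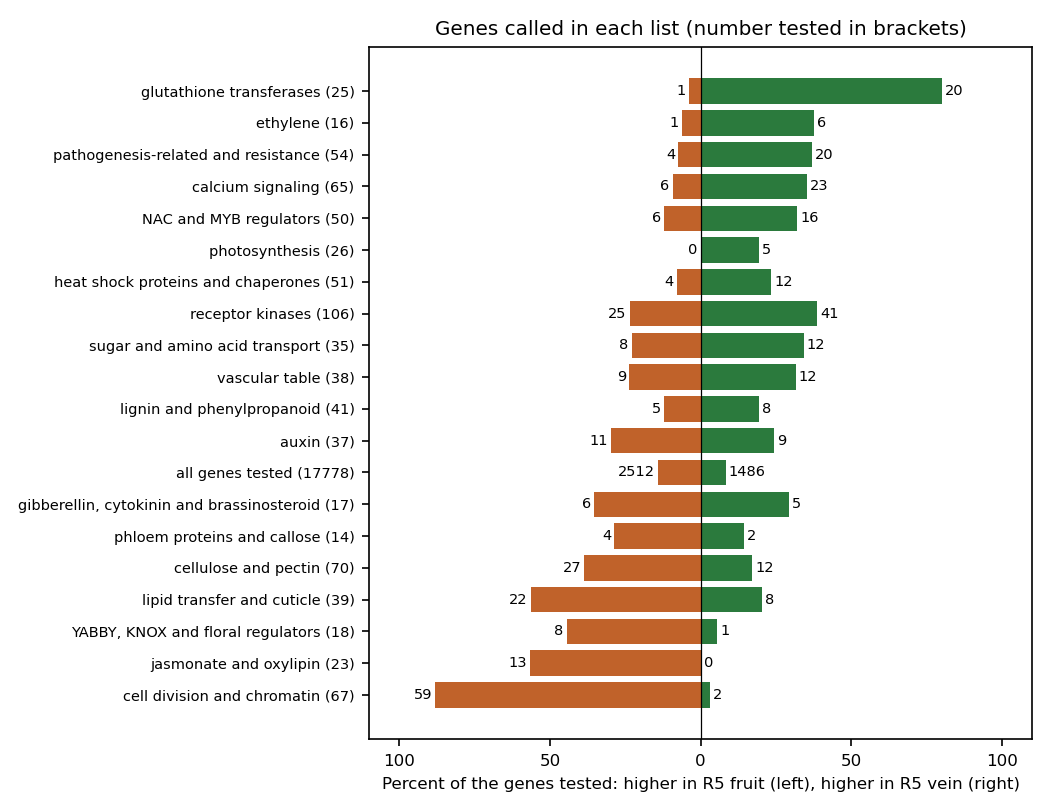
Share of the genes tested in each list that were called higher in R5 fruit (orange, to the left) or higher in R5 vein (green, to the right), in percent, with the number of called genes at the bar ends. Cell division genes (59 of 67) lie furthest to the fruit side and glutathione transferases (20 of 25) furthest to the vein side, with all 17778 genes shown for reference.

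Among the named genes, lipid-transfer genes held the largest differences toward fruit, with unnamed genes of like size beside them. A lipid-transfer protein (Csa3G026150), of the small secreted proteins that carry lipids toward cuticle and membranes, had 0.759 and 0.369 RPM in vein and 1441 and 1414 RPM in fruit (log2 difference -10.41, SE 0.24, adjusted p = 1e-05), the largest difference of the comparison. A second lipid-transfer gene (Csa3G026660) was at 1.9 and 3.95 RPM in vein and 985 and 1455 RPM in fruit (log2 -8.52, adjusted p = 4.6e-05), and Csa3G026160, which has no name here but the identifier next to the first, had 0.0542 and 0.263 RPM and 101 and 109 RPM. Every fruit library was thus far above every vein library in each of the 3. Close copies of such genes can share reads, and how reads with several matches were counted is not given in the sources used here.

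Of the 39 lipid-transfer and cuticle genes, 22 were higher in fruit and 8 higher in vein, with a median of -1.20. The study had listed 26 of the 39 as lower in R5 than in WT vein. The fruit-higher share of 56.4% stands beside 44.4% over all genes listed that way. A GDSL lipase (Csa6G449250), of an enzyme class that includes cutin builders, was at 1.46 and 3.27 RPM in vein and 162 and 179 RPM in fruit, and a second (Csa2G078090) at 1.3 and 1.05 RPM and 32.4 and 57.3 RPM. On the vein side of the same list, a lipid-transfer gene (Csa3G017110) had 472 and 123 RPM in vein and 44.05 and 42.9 RPM in fruit (log2 difference 2.46, SE 0.65, adjusted p = 0.024). Its vein libraries lay far apart and both were above both fruit libraries, and the call was lost without fruit replicate 1 (adjusted p = 0.0969) or 2 (adjusted p = 0.106).

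Wall genes were split. Of 70 cellulose and pectin genes, 27 were higher in fruit and 12 higher in vein, with a median of -0.22 beside -0.20 for all genes. The study had listed 48 of the 70 as lower in R5 than in WT vein. The fruit-higher share of 38.6% is no larger than the 44.4% over all genes listed that way. Polygalacturonase inhibiting protein 1 (Csa4G154320), which blocks pectin-degrading enzymes of pathogens, had 45.03 and 12.6 RPM in vein and 3369 and 2320.1 RPM in fruit (log2 difference -6.84, SE 0.53, adjusted p = 0.00025). Expansin A1 (Csa1G009820), a protein that loosens the wall during growth, was at 10.1 and 9.69 RPM in vein and 369 and 444 RPM in fruit (log2 difference -5.28, SE 0.14, adjusted p = 1.1e-05), and its libraries agreed closely within each tissue. Arabinogalactan protein 31 (Csa1G074910) was at 2.06 and 1.63 RPM and 92.3 and 86.4 RPM. Toward vein, the cellulose synthase-like genes annotated B3 (Csa2G416190 and Csa2G416170) and B1 (Csa7G041990) differed by 2.07, 2.01 and 2.24 on the log2 scale. The D5 member (Csa4G002500), of a subfamily tied to tip growth and dividing cells in Arabidopsis, lay on the other side with 47.2 and 21.02 RPM in vein and 222 and 205 RPM in fruit.

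Cell division was the most uniform of the groups. Of 67 genes of the cell cycle, histones, DNA replication and mitotic motors, 59 were higher in fruit, 2 were higher in vein and 6 were not called, with a median of -1.80. The study had listed 63 of them as lower in R5 than in WT vein. The summed level was 2749 and 2407 RPM in vein and 8902 and 8950.0 RPM in fruit, so the vein libraries matched each other here, and the count was 59 without vein replicate 1 and 60 without vein replicate 2. In WT, 26 of the 67 were higher in fruit and 3 higher in vein, with a median of -0.82. WT vein summed to 5510 and 5363 RPM and WT fruit to 8469 and 9374 RPM. The tissue differences of R5 and WT were called different for 40 of the 67. In R5, cyclin A1;1 (Csa6G382370), a mitotic cyclin, was at 16.4 and 12.5 RPM in vein and 129.7 and 140.3 RPM in fruit (log2 difference -3.19, SE 0.15, adjusted p = 6.5e-05). The D-type cyclins D2;1 (Csa6G499110) and D3;3 (Csa6G491640), which drive entry into the cycle, had 1.03 and 0.579 RPM and 1.9 and 1.95 RPM in vein against 31.8 and 36.3 RPM and 20.4 and 26.7 RPM in fruit. A kinesin (Csa4G064090) differed by -3.03. The vein-higher members were a cyclin-dependent kinase inhibitor (Csa7G073750), a brake on the cycle, at 21.2 and 24.3 RPM in vein and 5.98 and 9.1 RPM in fruit, and cyclin p4;1 (Csa3G127030), at 7.27 and 12.1 RPM and 5.17 and 2.57 RPM, which was named after its values were seen. The call of cyclin p4;1 was lost when any library other than vein replicate 1 or fruit replicate 1 was left out (adjusted p from 0.0541 to 0.222).

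Organ identity genes were called more often on the fruit side. Of 18 YABBY, KNOX, growth-regulating and floral factors, 8 were higher in fruit, 1, *CsYAB5*, was higher in vein and 9 were not called (median -1.11). The study had listed 10 of the 18 as lower in R5 than in WT vein, and the fruit-higher share of the list is no larger than the 44.4% over all genes listed that way. *KNAT2* (Csa2G034560), a KNOX gene of meristems and carpels in Arabidopsis, had 0.0542 and 0.158 RPM in vein, which is 1 and 3 reads, and 44.4 and 40.4 RPM in fruit (log2 difference -6.15, SE 0.20, adjusted p = 2.3e-05). *KNAT6* (Csa5G600390) showed a smaller gap, 9.11 and 5.64 RPM against 23.9 and 22.7 RPM (log2 difference -1.63, SE 0.23, adjusted p = 0.0024). Growth-regulating factors 5 (Csa1G595880) and 1 (Csa6G496380), which promote cell number in young organs, were at 0.434 and 0.948 RPM and 10.8 and 6.53 RPM in vein and at 35.4 and 47.8 RPM and 121 and 110.4 RPM in fruit. The list summed to 362 and 295 RPM in vein and 671 and 701 RPM in fruit. The sum does not show that each member was present in vein, where *KNAT2* and growth-regulating factor 5 were nearly absent.

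The jasmonate list had no vein-higher member. Of 23 lipoxygenase, allene oxide synthase and cyclase, and jasmonate-response genes, 13 were higher in fruit and 10 were not called, with a median of -1.94. In WT, 17 of the 23 were higher in fruit and 0 higher in vein, with a median of -2.42. The fruit side was thus not particular to R5. The study had listed 20 of the 23 as higher in R5 than in WT vein, so the direction between the R5 tissues is opposite to the one the genes were picked for. The neighbouring lipoxygenase 2 genes Csa4G286940 and Csa4G286950 were at 3.8 and 7.43 RPM and 3.31 and 7.64 RPM in vein and at 74.2 and 74.8 RPM and 67.2 and 66.03 RPM in fruit (log2 -3.68 and -3.59). Allene oxide synthase (Csa7G075600), which makes the first committed precursor of jasmonate, had 7.81 and 2.95 RPM in vein and 49.5 and 54.9 RPM in fruit (log2 difference -3.30, SE 0.38, adjusted p = 0.001). The summed level of the list differed between the vein libraries, 1882 and 581 RPM, and both were below the fruit libraries at 3770.1 and 3519 RPM. The count was 17 without vein replicate 1 and 11 without vein replicate 2, and in the latter fit 3 genes were vein-higher. Without fruit replicate 2 it was 7.

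Auxin genes were called on both sides, within families as well. Of 37, 11 were higher in fruit and 9 higher in vein. The auxin influx carrier gene annotated *LAX2* (Csa7G010800) had 8.84 and 4.16 RPM in vein and 198 and 182 RPM in fruit (log2 difference -4.85, SE 0.31, adjusted p = 0.00014). The Aux/IAA repressors, short-lived proteins that auxin destroys, lay on both sides. *IAA29* (Csa3G877650) was at 2.33 and 1.74 RPM in vein and 73.03 and 72.5 RPM in fruit (log2 -4.86), whereas *IAA16* (Csa7G378520) was at 40.8 and 34.2 RPM in vein and 0.653 and 0.598 RPM in fruit (log2 5.07). IAA carboxylmethyltransferase 1 (Csa7G081680), which methylates auxin, had 1.3 and 0.895 RPM and 65.8 and 63.04 RPM. PINOID-binding protein 1 (Csa1G071800), a calcium-binding partner of a kinase that directs auxin transport, had 12.4 and 7.8 RPM in vein and 1.63 and 0.782 RPM in fruit (log2 difference 2.65, SE 0.34, adjusted p = 0.0015). The GH3 gene Csa4G007100, whose enzyme class ties auxin to amino acids, was higher in vein (log2 difference 1.19, SE 0.23, adjusted p = 0.0084). It fell below 2-fold without vein replicate 1 (log2 0.87) and lost the call without fruit replicate 2 (adjusted p = 0.057). Without fruit replicate 1, 5 of the 37 auxin genes were vein-higher.

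Of the 17 gibberellin, cytokinin and brassinosteroid genes, 6 were higher in fruit and 5 higher in vein. *GA3* (Csa4G638410), an early oxidase of gibberellin synthesis, was at 6.13 and 3.32 RPM in vein and 51.6 and 46.5 RPM in fruit (log2 difference -3.30, SE 0.27, adjusted p = 0.0003). *GA2OX8* (Csa1G064730), of the oxidases that inactivate gibberellin, was at 18.7 and 17.8 RPM in vein and 6.04 and 10.6 RPM in fruit (log2 difference 1.14, SE 0.35, adjusted p = 0.039), so a gene of synthesis and a gene of breakdown lay on opposite sides. The *GA2OX8* call was lost without fruit replicate 1 (log2 0.75, adjusted p = 0.192) and without any of the WT libraries (adjusted p from 0.051 to 0.055). Of 16 ethylene genes, 6 were higher in vein and 1 higher in fruit. Ethylene-forming enzymes, which make the last step of ethylene synthesis, were found on each side, Csa6G160180 with 397 and 908 RPM in vein and 143 and 196 RPM in fruit, and Csa6G511860 with 2.71 and 1.42 RPM and 12.9 and 13.5 RPM. Without fruit replicate 1 the call of Csa6G160180 was lost (adjusted p = 0.0822), and without fruit replicate 2 or either WT vein library 3 ethylene genes were vein-higher. Of 6 abscisic acid genes, 1 was higher in vein, the GRAM-domain gene Csa1G043190 (log2 difference 1.80, SE 0.17, adjusted p = 0.00046).

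Genes of sugar use were called on both sides. Sucrose synthases 3 (Csa4G001950) and 4 (Csa1G597800), which split sucrose in growing sinks, were at 18.9 and 9.22 RPM and 8.08 and 2.05 RPM in vein and at 87.1 and 103 RPM and 40.9 and 35.8 RPM in fruit. The polyol and monosaccharide transporter 5 genes Csa7G253780 and Csa7G253800 were higher in vein, by 2.70 and 2.60. Of the 35 sugar and amino acid transport genes, 12 were higher in vein and 8 higher in fruit. Without fruit replicate 1, 7 were vein-higher, and Csa7G253800 was not called (adjusted p = 0.0734).

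The largest differences toward vein were in unnamed genes. Csa1G153560 had 222 and 368 RPM in vein and 0.489 and 0.184 RPM in fruit (log2 difference 8.44, SE 0.31, adjusted p = 3.2e-05), the largest difference in that direction, and Csa2G196890 had 126 and 51.9 RPM and 0.598 and 0.184 RPM. Among named genes chitinase A (Csa5G139760), which degrades the chitin of fungal walls, came first with 1019 and 252 RPM in vein and 12.5 and 7.59 RPM in fruit (log2 difference 5.63, SE 0.64, adjusted p = 0.001). Next were a LEA hydroxyproline-rich glycoprotein gene (Csa6G425840) at 63.4 and 237 RPM and 0.598 and 6.21 RPM, and an EamA-like transporter gene (Csa3G818270) at 18.8 and 27.5 RPM and 0.109 and 0.138 RPM. The vein libraries of chitinase A were well apart and those of the glycoprotein gene lay apart in the other direction. In all 3 genes both vein libraries were above both fruit libraries, but a lack of overlap held for every called gene.

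Glutathione transferases, which couple glutathione to toxic or oxidized molecules, were the most one-sided group of the vein. Of 25, 20 were higher in vein, 1 was higher in fruit and 4 were not called, with a median of 2.08, while the study had listed 24 of the 25 as higher in R5 than in WT vein. The summed level was 2632 and 2184 RPM in vein and 655 and 692 RPM in fruit, and in WT it was 212 and 272 RPM in vein and 399 and 363 RPM in fruit. A TAU 8 gene (Csa4G303690) had 182 and 105 RPM in vein and 9.73 and 5.7 RPM in fruit (log2 difference 4.12, SE 0.36, adjusted p = 0.00039), and a second, Csa4G304250, 95.9 and 43.3 RPM and 5.66 and 2.07 RPM. Several of these genes carry neighbouring identifiers and near-identical copies may split reads, so single values are uncertain. With array weights, which gave the R5 vein libraries the least weight, 11 of the 25 were called as vein-higher, and without fruit replicate 1, 13 were. The member higher in fruit, a TAU 19 gene (Csa4G064110) named after its values were seen, had 1.84 and 1.26 RPM and 7.18 and 6.35 RPM.

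Of 54 pathogenesis-related and resistance genes, 20 were higher in vein and 4 higher in fruit (median 0.64). A pathogenesis-related family gene (Csa7G318990) was at 1089 and 889.8 RPM in vein and 91.5 and 144 RPM in fruit (log2 difference 3.09, SE 0.52, adjusted p = 0.0045). A basic chitinase (Csa6G509040) rested more on replicate 1, with 217 and 13.2 RPM in vein and 2.07 and 5.47 RPM in fruit (log2 difference 3.80, SE 1.15, adjusted p = 0.039), and its call was lost without either fruit library or any WT library (adjusted p from 0.069 to 0.177). The thaumatin family lay on both sides, with Csa6G506000 at 6.4 and 17.8 RPM in vein and 0.0544 and 0.368 RPM in fruit, and Csa2G264610 at 34.3 and 34.8 RPM and 144 and 143 RPM. The summed level of the list was 5232 and 2782 RPM in vein and 1199 and 1303 RPM in fruit. Without fruit replicate 1, 10 of the genes were vein-higher.

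Signaling genes were called on both sides. Of 106 receptor kinases, 41 were higher in vein and 25 higher in fruit, so 66 of 106 were called in all. Examples on the fruit side were the leucine-rich repeat kinases Csa4G648520 with 39.3 and 35.3 RPM in vein and 782 and 924 RPM in fruit (log2 difference -4.49, SE 0.15, adjusted p = 2.3e-05), and Csa6G046400 with 7.27 and 18.9 RPM and 181 and 183 RPM. On the vein side, receptor-like protein kinase 1 (Csa1G605740) was at 37.8 and 24.9 RPM and 2.12 and 2.3 RPM, and a cysteine-rich kinase (Csa1G065420), of a family known for responses to oxidative stress and pathogens, at 148 and 100.2 RPM and 12.1 and 25.2 RPM. Of 65 calcium signaling genes, 23 were higher in vein and 6 higher in fruit. Calmodulin-like 41 (Csa3G854250) was at 85.01 and 78.9 RPM in vein and 7.5 and 5.24 RPM in fruit (log2 difference 3.60, SE 0.52, adjusted p = 0.0026). Left to the R5 libraries alone, the fit called 23 of the receptor kinases as vein-higher, and without fruit replicate 1 it called 24.

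Of 50 NAC and MYB factors, 16 were higher in vein and 6 higher in fruit. The vein-higher share, 32%, was near the 30.4% of all named genes that the study listed as higher in R5 vein. *MYB116* (Csa1G042350) was at 79.7 and 55.3 RPM in vein and 9.41 and 10.1 RPM in fruit (log2 difference 2.71, SE 0.41, adjusted p = 0.0031), and its second copy (Csa1G024160) at 25.7 and 9.48 RPM and 4.51 and 3.45 RPM (log2 difference 1.86, SE 0.49, adjusted p = 0.024). The call of the second copy was lost without fruit replicate 1 (adjusted p = 0.0758) or 2 (adjusted p = 0.123). *NAC61* (Csa6G452770) had 46.8 and 25.97 RPM in vein and 0.924 and 1.47 RPM in fruit (log2 4.40), and *NAC36* (Csa6G127320) 157 and 72.6 RPM and 13.5 and 9.15 RPM (log2 3.21). *NAC90* (Csa6G425720) could not be placed. Its vein libraries were 46.4 and 23.8 RPM, while its fruit libraries were 21.6 and 1.75 RPM, far apart, and the test gave an adjusted p of 0.11. Without fruit replicate 1 it was called (log2 3.91, adjusted p = 0.00827 in limma). On the fruit side, *MYB105* (Csa5G605730), a gene that in Arabidopsis sets organ boundaries, was at 1.46 and 1.11 RPM and 11.7 and 15.96 RPM (log2 difference -3.00, SE 0.23, adjusted p = 0.00023).

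The phenylpropanoid pathway, which supplies lignin and soluble phenolics, gave 8 vein-higher and 5 fruit-higher genes of 41. Of 10 genes annotated as phenylalanine ammonia-lyase, its entry enzyme, 3 were higher in vein and 7 were not called. Csa1G590300 had 165 and 256 RPM in vein and 46.3 and 45.5 RPM in fruit, and Csa6G446290 had 40.1 and 32.6 RPM and 7.07 and 2.12 RPM. The third, Csa6G445760, named after its values were seen, had 119.6 and 79.6 RPM and 53.9 and 16.6 RPM (log2 difference 1.68, SE 0.54, adjusted p = 0.045), and it lost its call when any library other than vein replicate 2 or fruit replicate 1 was left out (adjusted p from 0.0728 to 0.166). Laccases, which join lignin units in the wall, divided. Laccase 17 (Csa1G085370) was at 42.5 and 33.2 RPM in vein and 12.5 and 12.6 RPM in fruit (log2 difference 1.54, SE 0.16, adjusted p = 0.00078), and laccase 3 (Csa1G533470) at 0.217 and 0.316 RPM and 20.1 and 20.9 RPM (log2 difference -4.78, SE 0.19, adjusted p = 3.8e-05). Without fruit replicate 2, 5 genes of the pathway were vein-higher.

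Of the 38 genes in the study's own table of vascular genes, 12 were higher in vein and 9 higher in fruit, and 17 were not called. Phloem genes were called on both sides. *APL* (Csa6G135460), a MYB factor required for phloem identity in Arabidopsis, was at 27.5 and 39.9 RPM in vein and 17.02 and 14.5 RPM in fruit (log2 difference 1.05, SE 0.22, adjusted p = 0.011), and phloem protein 2-A9 (Csa1G708660), a lectin of the phloem sap family, at 29.1 and 33.1 RPM and 14.9 and 13.2 RPM (log2 difference 1.12, SE 0.21, adjusted p = 0.0066). *APL* fell below 2-fold without vein replicate 2 (log2 0.79) and lost its call without fruit replicate 2 (log2 0.94, adjusted p = 0.072). Plasmodesmata callose-binding protein 3 (Csa1G013210) was lower in vein, at 83.98 and 86.5 RPM against 414 and 411 RPM (log2 difference -2.27, SE 0.12, adjusted p = 7.9e-05). Of the 2 genes annotated sieve-element-occlusion-related 1, Csa2G193340 was higher in fruit, at 23.5 and 19.5 RPM against 102 and 91.2 RPM. The other, Csa1G002870, had 12.04 and 21.5 RPM in vein and 15.4 and 15.5 RPM in fruit (adjusted p = 0.87). Over the 14 phloem and callose genes, 2 were higher in vein and 4 higher in fruit. Their median was 0.55, beside -0.20 for all genes and 0.37 for named genes. Their summed level was 867 and 681 RPM in vein and 1292 and 1363 RPM in fruit. *APL* and phloem protein 2-A9 were counted in both tissues.

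In some vascular genes the vein libraries differed widely. *ACL5* (Csa6G362930), a thermospermine synthase that restrains xylem maturation in Arabidopsis, had 71.3 and 16.9 RPM in vein and 22.8 and 20.9 RPM in fruit, so replicate 1 lay above and replicate 2 below the fruit libraries. A gene annotated CCR-like (Csa3G598910) had 151 and 13.5 RPM in vein and 2.18 and 48.4 RPM in fruit, with overlap in both directions. Callose synthase 1 (Csa7G429550) had 455 and 220.0 RPM and 153 and 226 RPM. None of these 3 was called (adjusted p from 0.31 for the CCR-like gene to 0.39 for *ACL5*, with 0.12 for callose synthase 1). Without vein replicate 2, *ACL5* (log2 1.69) and callose synthase 1 (log2 1.29) were called as vein-higher.

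Photosynthesis genes, listed as leaf markers, lay far apart between the vein libraries. The 26 genes of the list summed to 3273 and 18197 RPM in vein and to 4686 and 3933 RPM in fruit, so vein replicate 1 was below both fruit libraries and vein replicate 2 was above them. WT vein was at 34877 and 31920 RPM. In WT, 22 of the 26 were higher in vein and 0 higher in fruit, with a median of 1.95. The study had listed all 26 as lower in R5 than in WT vein, so they are no unbiased markers of R5 vein. In R5, 5 of the 26 were higher in vein and 21 were not called. Without vein replicate 1 the count was 20 of 26, and without vein replicate 2 it was 3, with 1 gene higher in fruit. It was 1 without either fruit library and 3 without any WT library. The light-harvesting gene Csa3G664560 was at 80.6 and 993 RPM in vein and 18.1 and 19.1 RPM in fruit (log2 difference 3.90, SE 1.00, adjusted p = 0.022, up to 0.0966 without a fruit library), and photosystem I subunit P (Csa6G095900) at 137 and 213 RPM and 60.4 and 59.3 RPM (log2 difference 1.51, SE 0.22, adjusted p = 0.0026). Chlorophyll A/B binding protein 1 (Csa6G139750) was at 591 and 5657 RPM in vein and 2039 and 1621 RPM in fruit, and its log2 difference was 0.01, 1.64 without vein replicate 1 and -1.62 without vein replicate 2.

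**Figure D3:**
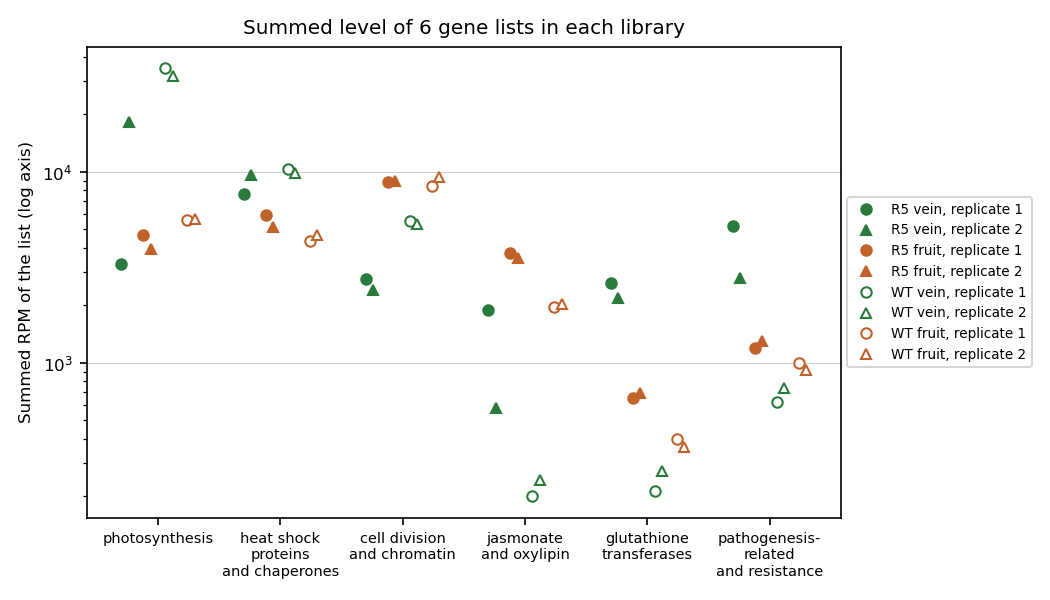
Summed RPM of the genes of 6 lists in each of the 8 libraries on a log axis, with vein in green, fruit in orange, R5 filled, WT open, replicate 1 as circles and replicate 2 as triangles. For photosynthesis the R5 vein libraries lie at 3273 and 18197 RPM, on either side of R5 fruit, while for cell division and glutathione transferases they lie close together and apart from R5 fruit.

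Abundant transcripts also set the vein libraries apart. Csa5G609710, without a name here, took the most reads in R5 vein, with 5770.1 and 17976 RPM, and had 617 and 867 RPM in fruit (log2 difference 3.80, SE 0.61, adjusted p = 0.0037). Csa5G182730 was at 109 and 6430.3 RPM in vein, far apart, and at 16.6 and 9.06 RPM in fruit. It was called with both vein libraries (log2 6.03, adjusted p = 0.028). Csa2G252020 had 263 and 4392 RPM and 105 and 83.6 RPM. Both calls were lost without either fruit library or any WT library (adjusted p from 0.0504 to 0.132 for Csa5G182730 and from 0.0796 to 0.176 for Csa2G252020). Cold, circadian rhythm and RNA binding 2 (Csa2G247040), whose Arabidopsis match is an RNA-binding protein under control of the clock, lay the other way, at 3960.2 and 449.7 RPM in vein and 4484 and 3600.2 RPM in fruit, with WT vein at 477 and 610.0 RPM, and was called without vein replicate 1 (log2 -3.16, adjusted p = 1.09e-05 in limma). 

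Of 51 heat shock and chaperone genes, listed as signs of handling, 12 were higher in vein and 4 higher in fruit, and their sum was 7658 and 9585 RPM in vein and 5921 and 5126 RPM in fruit. A mitochondrial small heat shock protein (Csa3G020080) was at 187 and 683 RPM in vein and 26.4 and 23.8 RPM in fruit (log2 difference 3.81, SE 0.58, adjusted p = 0.0032). Heat shock factor B4 (Csa1G629180), which in Arabidopsis acts in stem cells of the root, was on the fruit side at 0.488 and 0.0527 RPM and 10.7 and 13.2 RPM. Without vein replicate 1, 21 genes of the list were vein-higher. The part of handling in the tissue difference was not tested.

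Some genes were counted in 1 tissue and nearly absent from the other. With at most 3 reads in both libraries of a tissue and at least 5 RPM in both of the other, 46 genes were found in fruit and 5 in vein, and 29 and 1 of these met the same limits in WT. Of the 46, 18 had no read at all in vein. CsaUNG012530 had 0.108 and 0.158 RPM in vein, which is 2 and 3 reads, and 468 and 472 RPM in fruit. Csa6G095270 had 0 and 0 RPM in vein and 117 and 119 RPM in fruit, at least 727-fold higher against 3 reads. *CsIVP* and *KNAT2* were among the 46, as was an Integrase-type DNA-binding gene (Csa2G349090) with 25.2 and 24.4 RPM in fruit. Of the 5 found in vein, the only named gene was the EamA-like transporter gene Csa3G818270, and Csa2G225320 had 9.38 and 29.5 RPM in vein and 0.0544 and 0 RPM in fruit. With 1 library left out the limits are easier to meet, and 11 genes were found in vein without vein replicate 1 or fruit replicate 2, and 8 without fruit replicate 1.

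The same contrast was made in WT. In the same fit 1325 genes (7.45%) were higher in WT vein and 4039 (22.7%) higher in WT fruit, and no library is shared between the contrasts. Of the fruit-higher genes of R5, 1854 of 2512 (73.8%) were also fruit-higher in WT, and these were 45.9% of the WT list. Of the vein-higher genes of R5, 612 of 1486 (41.2%) were also vein-higher in WT, which is 46.2% of that list. A test of the difference itself called 2032 genes (11.4%), of which 1470 (8.27%) lay more toward vein in R5 than in WT, and DESeq2 called 3393. It called 429 of the vein-higher and 349 of the fruit-higher genes of R5. It rested on single libraries and was 5544 and 8188 with R5 vein replicate 1 or 2 left out, 124 and 275 without R5 fruit replicate 1 or 2, and 0 in limma when any of the 4 WT libraries was left out, where 3641 to 4079 genes had an unadjusted p under 0.05. The other tools were not run without a WT library.

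In 65 genes the call was vein-higher in R5 and fruit-higher in WT, and in 2 genes the reverse. With TMM factors the counts were 32 and 9. All 65 had a called difference in the test. Being called in opposite directions in the same fit largely ensured this, so it adds no further evidence. Of the 65, 58 were in the study's list of genes higher in R5 than in WT vein, so their direction is not independent of the study's choice. Without R5 vein replicate 1, 50 of the 65 kept their vein-higher call in R5, and without replicate 2, 63. The whole count of such opposite genes was 218 without R5 vein replicate 2, 24 without WT vein replicate 1 and 29 without WT fruit replicate 1, and the count of the reverse kind was 44, 7 and 1 with vein 2 of R5, vein 1 of R5 or fruit 2 of WT left out. The 5 with the largest differences included 3 glutathione transferases. Csa3G133380, of the tau 7 type, had 226 and 188 RPM in the vein of R5 against 22.8 and 24.1 RPM in its fruit, while WT had 0.663 and 2.99 RPM in vein and 12.6 and 6.05 RPM in fruit (difference of log2 differences 5.31, adjusted p = 0.016). The TAU 8 genes Csa4G304750 and Csa4G303680 gave 5.47 and 4.78.

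The other 2 of those 5 were a methyltransferase-like gene (Csa4G354130) and Ca2+-binding protein 1 (Csa3G167380). The latter had 84.3 and 129 RPM in the vein of R5 against 31.5 and 23.5 RPM in its fruit, beside 2.87 and 3.76 RPM in WT vein and 16.9 and 18.8 RPM in WT fruit. In both genes R5 vein was the highest group and WT vein the lowest. The R5 call of Csa4G354130 was lost without fruit replicate 1 (adjusted p = 0.0562) or 2 (adjusted p = 0.102), and that of Csa2G006030 without vein replicate 2 (log2 -0.97) or either fruit library (adjusted p = 0.0504 and 0.0613). The 2 genes of the reverse kind were a cytochrome P450 (Csa2G006030), with 0.868 and 0.316 RPM in the vein of R5, 2.12 and 2.25 RPM in its fruit and 7.63 and 8.68 RPM in WT vein, and a peptidase of the M20 family (Csa3G902920), at 31.4 and 24.4 RPM and 84.8 and 61.7 RPM with 107 and 82.7 RPM. In WT fruit the P450 gene had 2.18 and 1.87 RPM and the peptidase gene 48.4 and 43.5 RPM, so R5 fruit was close to WT fruit for the first and above it for the second, and R5 vein was below WT vein for both.

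**Figure D4:**
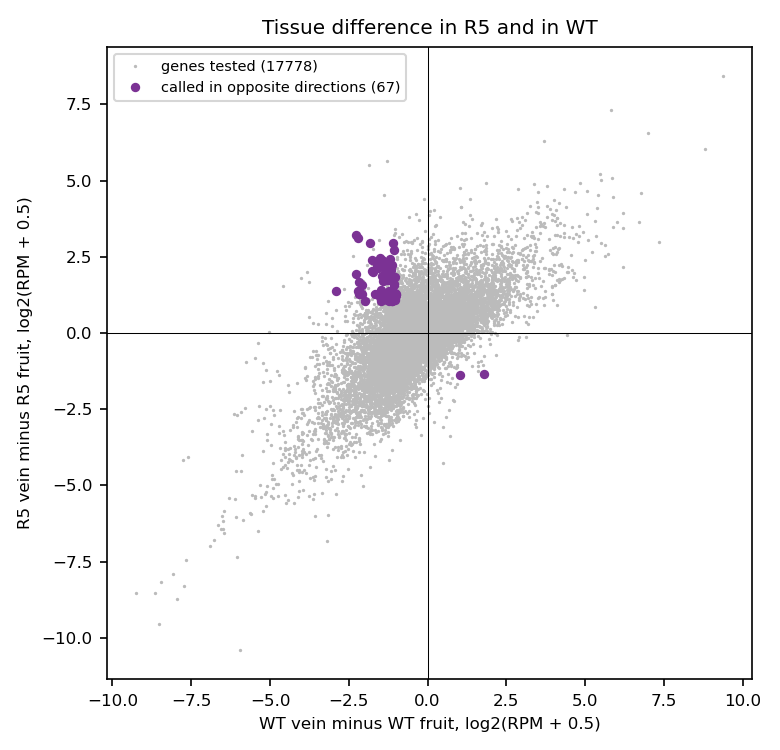
Vein minus fruit on log2(RPM + 0.5) in R5 (vertical axis) against the same in WT (horizontal axis) for the 17778 genes tested, with the 67 genes called in opposite directions in purple. Of these, 65 lie at the upper left, higher in vein in R5 and higher in fruit in WT, and 2 in the lower right.

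Genes that the study measured again by qRT-PCR gave mixed results between the R5 tissues. Ubiquitin-conjugating enzyme 11 (Csa2G138770), of the enzymes that hand ubiquitin to target proteins, was at 96.6 and 45.8 RPM in vein and 11.7 and 11.9 RPM in fruit (log2 difference 2.45, SE 0.36, adjusted p = 0.0026). A development and cell death domain gene (Csa5G148780) was at 614 and 483 RPM and 158 and 113 RPM (log2 difference 2.02, SE 0.27, adjusted p = 0.0018). Walls Are Thin 1 (Csa2G363030), an auxin transporter of the vacuole needed for secondary walls in Arabidopsis, had 82.3 and 30.9 RPM in vein and 54.5 and 28.7 RPM in fruit with overlapping libraries (adjusted p = 0.71), and phloem protein 2-B12 (Csa3G132020) had 8.46 and 3.95 RPM and 2.94 and 3.4 RPM (adjusted p = 0.11), with a call without vein replicate 2 (log2 1.29).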

How the data were processed

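RNA of midvein and young fruit from R5 and WT cucumber was sequenced, with 2 libraries for each of the 4 groups. The authors mapped reads with TopHat, counted them per gene with HTSeq and deposited RPM values for 17783 genes. Versions and the handling of reads with several matches are not given in the sources used here. All values were whole multiples of 1 read (100% within 0.05 of a read), and the recovered totals were 18088985 to 22979345 reads per library.

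The filter kept the 17778 genes that reached 1 RPM in 2 or more libraries. They were fitted in limma 3.58.1 (R 4.3.3) on log2(RPM + 0.5), with 4 group means over all 8 libraries, 4 residual degrees of freedom, a trended empirical Bayes variance and two-sided p-values with Benjamini-Hochberg adjustment over all genes. A call needed 2-fold or more together with an adjusted p below 0.05, and the difference between the R5 and WT contrasts an adjusted p under 0.05. The script was tested on simulated data. On the recovered reads the edgeR 4.0.16 quasi-likelihood test called 2092 genes higher in vein and 2101 higher in fruit, and DESeq2 1.42.0 called 2716 and 2013. P-values measure the spread between libraries described as biological replicates.

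Named genes were *CsIVP*, genes of the study's vascular, auxin and qRT-PCR tables, the 10 largest differences in each direction with at least 10 RPM in the higher tissue and no overlap of libraries (over all and over annotated genes), the 10 most abundant genes of each tissue, the 5 largest opposite differences, and up to 4 called members of each list in each direction. Those that matter were described. The members and lists were chosen with earlier results of these data known. Names came from the study's supplementary tables, since 0 of 23999 reference genes matched by identifier. Alternatives covered the pseudocount (0.1 and 1), the filter, scaling, array weights, R5 libraries alone, tools, the replicate block, the fold requirement and each library left out.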

Additional observations from a re-analysis of the deposited data

Results flagged for a closer look

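The difference between vein and fruit was tested for being equal in R5 and WT, and 53 of the genes named above had an adjusted p under 0.05 in that limma interaction term. The values below are R5 minus WT on the log2 scale, so a positive value means that a gene lay more toward vein in R5. As given above, these calls changed strongly with the library left out, and in limma they were lost without any 1 WT library. The reason was not tested. The 53 are the named genes that met this test and are not a sample of all genes.

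On the positive side were 32 genes. The glutathione transferases Csa4G304750, Csa3G133380, Csa4G303680, Csa4G304250 and Csa4G303690 gave 5.47, 5.31, 4.78, 3.82 and 3.07. Among defense and stress genes, the LEA hydroxyproline-rich glycoprotein gene Csa6G425840 gave 7.38, chitinase A (Csa5G139760) 6.93, the thaumatin gene Csa6G506000 3.95, the small heat shock gene Csa3G020080 3.43, and the development and cell death domain gene Csa5G148780 2.54. Signaling and regulatory genes followed, with Ca2+-binding protein 1 (Csa3G167380) at 4.20, *MYB116* (Csa1G042350) at 3.36, receptor-like protein kinase 1 (Csa1G605740) at 3.30, *NAC61* (Csa6G452770) at 3.05, the cysteine-rich kinase Csa1G065420 at 2.55, the GRAM-domain gene Csa1G043190 at 2.60, ubiquitin-conjugating enzyme 11 (Csa2G138770) at 2.31 and the cyclin-dependent kinase inhibitor Csa7G073750 at 2.03. The auxin genes Csa1G071800 and Csa4G007100 gave 2.83 and 2.16. For metabolism and transport, the methyltransferase-like gene Csa4G354130 gave 4.29, the phenylalanine ammonia-lyase genes Csa6G445760, Csa6G446290 and Csa1G590300 3.86, 3.48 and 2.05, the transporter genes Csa7G253800 and Csa7G253780 3.21 and 2.50, cellulose synthase-like B3 (Csa2G416190) 2.82, and sucrose synthase 3 (Csa4G001950) 2.41. In the phloem group callose synthase 1 (Csa7G429550) gave 2.44, *APL* (Csa6G135460) 1.81 and the occlusion gene Csa1G002870 1.81. *KNAT6* (Csa5G600390) gave 1.52.

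On the negative side were 21 genes. Surface and wall genes were the lipid-transfer gene Csa3G026150 at -4.48, polygalacturonase inhibiting protein 1 (Csa4G154320) at -3.64, the GDSL lipase Csa6G449250 at -2.79, arabinogalactan protein 31 (Csa1G074910) at -1.91, cellulose synthase-like B1 (Csa7G041990) at -1.77, laccase 3 (Csa1G533470) at -1.71 and expansin A1 (Csa1G009820) at -1.68. Regulators were *MYB105* (Csa5G605730) at -2.60, *FIL* (Csa5G160210) at -2.55, *CsYAB5* (Csa2G006820) at -1.29, *IAA29* (Csa3G877650) at -2.14 and IAA carboxylmethyltransferase 1 (Csa7G081680) at -1.60. The division genes cyclin A1;1 (Csa6G382370), kinesin Csa4G064090 and cyclin D3;3 (Csa6G491640) gave -1.83, -1.66 and -1.43. The cytochrome P450 gene Csa2G006030 gave -3.12, the peptidase Csa3G902920 -2.40, the kinase Csa4G648520 -1.55 and the thaumatin gene Csa2G264610 -0.79. The occlusion gene Csa2G193340 and plasmodesmata callose-binding protein 3 (Csa1G013210) gave -2.19 and -1.23.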

How the results depend on the processing

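Values in brackets are the main counts. With the 4 R5 libraries alone, 840 genes were higher in vein (1486), and the vein-higher counts were 23 for receptor kinases (41), 1 for ethylene (6), 1 for photosynthesis (5), 3 for auxin (9), 7 for the vascular table (12), 7 for sugar and amino acid transport (12) and 4 for lignin (8). With array weights they were 972 for all genes, 11 for glutathione transferases (20), 9 for pathogenesis-related genes (20), 14 for calcium signaling (23), 24 for receptor kinases, 2 for ethylene, 3 for auxin, 7 for the vascular table, 7 for transport and 4 for lignin, with 6 auxin genes higher in fruit (11), and opposite calls were 35 (65) and 1 (2). DESeq2 gave 2716 vein-higher genes, 3393 differences between contrasts (2032), and 25 NAC and MYB (16), 10 ethylene, 17 photosynthesis, 21 heat shock (12) and 14 auxin genes higher in vein, and edgeR 9 photosynthesis genes. The reverse kind of opposite call counted 9 with TMM factors, quantile normalization and edgeR, 10 with DESeq2, and the first kind 32 with TMM factors, 23 with quantile normalization and 42 with a pseudocount of 1. With no fold requirement the counts were 2280 and 4788 (2512) in vein and fruit, and 281 and 40 opposite. At 4-fold they were 530 and 945, with 2 and 0 opposite. The 4-fold vein-higher list counts were 13 for glutathione transferases, 9 for pathogenesis-related genes, 9 for calcium, 11 for receptor kinases, 8 for NAC and MYB, 1 for ethylene, 2 for photosynthesis, 3 for heat shock, 2 for auxin, 4 for the vascular table and 3 for lignin, and the fruit-higher ones 29 for cell division (59), 16 for cellulose and pectin (27), 11 for receptor kinases (25) and 4 for auxin. Tissue-restricted genes of fruit (46) and vein (5) were 18 and 0 with no read allowed, 120 and 11 from 1 RPM, and 27 and 1 from 10 RPM.

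With each library left out in turn, vein-higher genes ranged from 991 to 2247, fruit-higher genes from 1990 to 3295, differences between contrasts from 0 to 8188, and opposite calls from 24 to 218 and from 1 to 44. The vein-higher list counts ranged from 13 to 22 (glutathione transferases), 10 to 29 (pathogenesis-related), 18 to 28 (calcium), 24 to 59 (receptor kinases), 13 to 23 (NAC and MYB), 3 to 9 (ethylene), 1 to 20 (photosynthesis), 10 to 21 (heat shock), 5 to 13 (auxin), 10 to 17 (vascular table), 7 to 13 (transport) and 5 to 12 (lignin). The fruit-higher ones ranged from 59 to 60 (cell division), 8 to 9 (YABBY and floral), 7 to 17 (jasmonate), 19 to 25 (lipid transfer), 25 to 29 (cellulose and pectin), 24 to 30 (receptor kinases) and 8 to 14 (auxin), and stayed at 9 (vascular table). Restricted genes ranged from 47 to 65 in fruit and from 6 to 11 in vein. Chlorophyll A/B binding protein 1 (Csa6G139750) was -1.62 without R5 vein replicate 2, and with replicate 1 of that tissue left out it was 1.64. Of 106 named genes 95 were called, and 65 of these kept the call under all 21 alternatives that gave a value, while 21 lost it other than by the 4-fold requirement.

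Same-numbered libraries did not deviate together in every pair of groups (correlations from -0.112 to 0.222), so the numbers were not taken as pairs. A replicate block gave 1530 vein-higher and 2514 fruit-higher genes, kept 3947 of 3998 calls, and gave 1071 differences between contrasts. Causes were not tested. With 2 libraries a group, the gap between the R5 vein libraries limits what can be called in vein, and depth limits genes of a few reads.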
